A study of Mus musculus with 6 samples.

Results

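Myosin heavy chains are the motor proteins of muscle contraction and of cell movement, and 8 genes that encode them were followed across 6 RNA libraries of mouse muscle stem cells. They are the developmental genes Myh3 and Myh8, the adult fast genes Myh1, Myh2 and Myh4, the slow gene Myh7, and the non-muscle genes Myh9 and Myh10. The genes were chosen by name, all 8 were found among the 14515 genes of the deposited table, and all 8 passed the filter on low values. The 6 muscle-type genes are called sarcomeric here, because their proteins build the thick filaments of the sarcomere.

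There were 2 libraries for each of 3 groups, labelled mdx/Ripk3mKO, mdx and wt (wild type). The mdx mouse lacks functional dystrophin through a mutation of its gene, and serves as a model of Duchenne muscular dystrophy. Mice labelled mdx/Ripk3mKO also carry a change in Ripk3, a kinase of necroptotic cell death, and both dystrophic groups share the mdx mutation. The labels spell out neither mKO nor the promoter of any Cre, and they give no age, strain or sex. Nor do they say if a group's 2 libraries are separate animals or cultures, and p-values then cover only the spread among these libraries, possibly a technical one. The sources describe the cells differently. The sample labels speak of quiescent satellite cells, sorted and used at once, while the series text speaks of activated wild-type cells kept for 72 hours below a transwell with cells of the 3 genotypes. Groups are therefore named as the libraries were labelled.

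A myosin motor is a pair of heavy chains with bound light chains, and the heavy chain sets how fast the motor works. Embryonic (Myh3) and neonatal (Myh8) myosin are made by newly formed muscle cells before birth and again in regenerating muscle, and adult fibres replace them with the fast IIa (Myh2), IIx (Myh1) or IIb (Myh4) form or with the slow form (Myh7), which the heart also uses. Myh9 and Myh10 encode the non-muscle myosins IIA and IIB, which drive adhesion, migration and cell division in most cell types.

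The values are read counts that were scaled between libraries and rounded, called scaled counts here, and their totals lay between 20611974 and 21037153 per library. The divisors estimated from the values were 1.204 and 1.205 for the mdx/Ripk3mKO libraries, against 0.921 and 0.954 for mdx and 0.909 and 0.87 for wt, so that depth and genotype go together. Ripk3 had 17 and 33 scaled counts in the libraries labelled mdx/Ripk3mKO, against 23 and 36 in mdx and 45 and 32 in wt, and did not check the labels. Library 1 of mdx/Ripk3mKO stood apart in sex-linked transcripts, with 6918 scaled counts of Xist against 164 to 666 in the others and 22.5% of their mean for the Y-linked Ddx3y. The mdx/Ripk3mKO libraries were also less alike than those of the other groups (mean chi-square per gene of 9.28, against 4.37 for mdx and 3.86 for wt). Library 2 of mdx/Ripk3mKO and library 1 of wt (2.83) were more alike than any pair within a group, as were 1 mdx and 1 wt library (3.75). By this measure the libraries did not group by label. The results below are given with and without each mdx/Ripk3mKO library where that changes a call. Of the satellite cell markers 6 of 6 were in the table, with summed scaled counts between 16406 and 17087, much of it Cdh15 (7135 to 8616). Among them Cd34 was near the floor and not tested, with 7 and 2 in mdx/Ripk3mKO, 2 and 12 in mdx, and 5 and 7 in wt. Markers of differentiating muscle (6 of 6, between 130200 and 160122) and of proliferating myoblasts (4 of 4, between 50592 and 54177) were abundant in all libraries. Among them the proliferation marker Mki67 had 13883 to 16904 scaled counts, and the differentiation factor Myog had 26795 to 35263. Which description of the cells holds was not tested.

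Myh3, Myh2, Myh1, Myh4 and Myh8 lie in this order on the plus strand of chromosome 11 (mm10), from 67078300 to 67308634, while Myh10 lies further along the same chromosome (68691915 to 68816632), Myh7 on chromosome 14 (54970688 to 54994634, minus strand) and Myh9 on chromosome 15 (77760587 to 77842175, minus strand). The promoters of the clustered genes are shown because these genes had similar profiles across the libraries. Each line holds 84 bases of the plus strand (RefSeq, GRCm38.p6), taken from a window of 250 bases before to 50 after the annotated start. Capitals mark a 14-base stretch shared by Myh2, Myh1, Myh4 and Myh8, the match to the MEF2 motif (the site type of the MEF2 muscle transcription factors) in Myh1, Myh4 and Myh8, and, in Myh3, a TATAAA box. Other TATAAA matches are not marked as such.
Myh3, chr11:67078206-67078289: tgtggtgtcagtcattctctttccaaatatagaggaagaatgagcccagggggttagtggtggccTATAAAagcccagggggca
Myh2, chr11:67170837-67170920: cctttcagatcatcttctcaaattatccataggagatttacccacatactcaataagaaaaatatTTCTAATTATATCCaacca
Myh1, chr11:67199877-67199960: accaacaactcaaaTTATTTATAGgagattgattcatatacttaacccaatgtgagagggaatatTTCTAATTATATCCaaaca
Myh4, chr11:67237589-67237672: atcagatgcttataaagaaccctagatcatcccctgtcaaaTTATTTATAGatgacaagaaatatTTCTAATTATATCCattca
Myh8, chr11:67277005-67277088: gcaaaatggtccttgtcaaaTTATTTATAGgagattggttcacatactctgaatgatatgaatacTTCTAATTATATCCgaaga

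The stretch TTCTAATTATATCC was found in the windows of these 4 genes and in no other of 32851 promoter windows searched, on either strand. It began 125 bases before the start of Myh2, 160 before that of Myh1, 158 before that of Myh4 and 54 before that of Myh8. The MEF2 motif, searched on both strands, matched in the windows of Myh1, Myh4 and Myh8 and in 3.19% of all windows, and each of these matches overlaps a TATAAA on the opposite strand. The Myh3 window held TATAAA 29 bases before the start, as did 13.6% of all windows anywhere on either strand. The windows of Myh7, Myh9 and Myh10 held no MEF2 match. These letters describe the reference genome. No binding was measured here, and the stretches were picked after the windows had been read.

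Myh3 was the most abundant heavy chain in all libraries. In CPM (scaled counts set against the total of their library) per kilobase of exon, its median level over the 6 libraries was 1110, with group means of 1030 ± 211 in mdx/Ripk3mKO, 1230 ± 84.9 in mdx and 1040 ± 28.3 in wt (SD, n = 2 each). Myh1 followed with a median of 148 CPM per kb, then Myh9 with 127, Myh8 with 53.0, Myh10 with 11.9, Myh4 with 3.43, Myh7 with 2.72 and Myh2 with 0.39. Neighbours in this order were not all apart. Myh1 ranged from 89.3 to 213 CPM per kb over the libraries and so spanned the levels of Myh9, which ranged from 122 to 132, and Myh4 (1.83 to 4.81) overlapped Myh7 (1.89 to 3.84). The levels of Myh9, Myh8, Myh7 and Myh10 depend on the exon length used. With the longest annotated transcript in place of all annotated exons, their medians were 220, 102, 3.77 and 16.0 CPM per kb, and Myh9 then stood above Myh1 at 154, and Myh7 above Myh4 at 3.43.

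**Figure D1:**
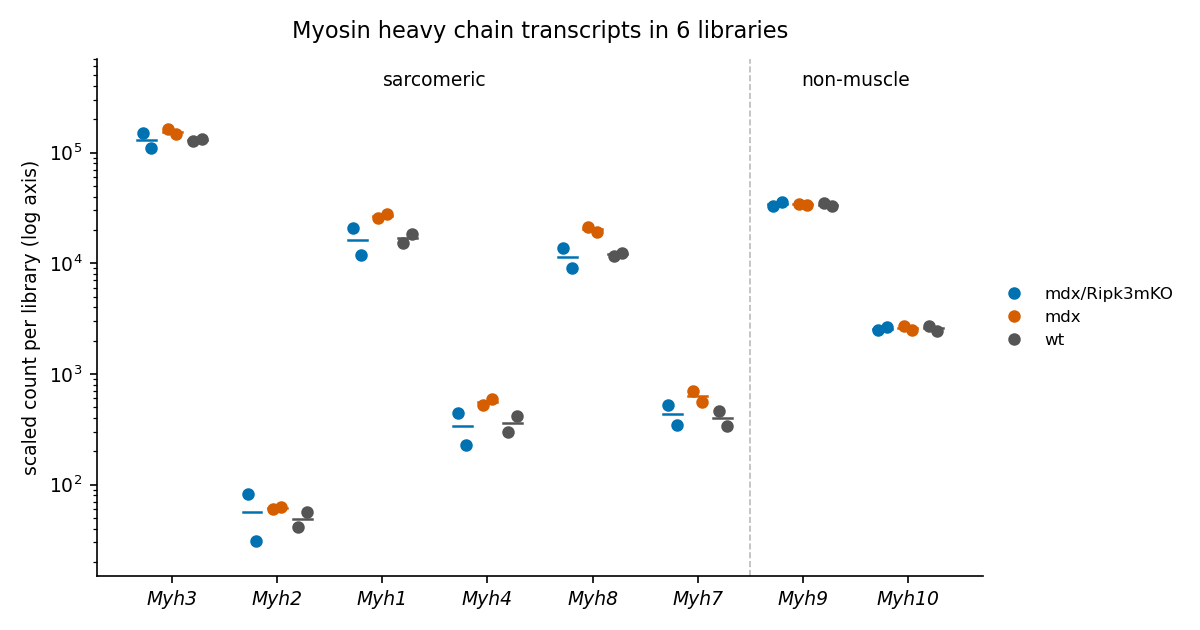
Scaled counts of the 8 heavy chain genes (vertical axis, log scale) in each library, with a dot per library and a line at the group mean, for mdx/Ripk3mKO (blue), mdx (orange) and wt (grey). Levels run from 31 for Myh2 to 164134 for Myh3, and for each sarcomeric gene both mdx dots lie above both wt dots.

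All 6 sarcomeric heavy chains were higher in both mdx libraries than in both wt libraries, and the 2 non-muscle genes were not. None of the 8 passed the test over all genes (limma, adjusted p under 0.05). By that test 0.0071% of the 14077 genes tested were called in mdx against wt, which is 1 gene. Libraries of mdx lay wholly above those of wt for 17.6% of all genes tested, against 6 of the 8 heavy chains. The sarcomeric genes rose and fell together over the libraries, so counts of them, here and below, are not counts of independent results. The median log2 fold change of the sarcomeric genes was 0.66, against -0.0022 over all genes. These are bulk values, in which more cells that make a transcript and more of it per cell cannot be told apart.

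Neonatal Myh8 differed by the most. It had 21405 and 19054 scaled counts in mdx, against 11679 and 12416 in wt. The lower mdx library was well above the higher wt library, and the libraries of each group lay close together. The log2 fold change was 0.75 ± 0.24 (95% interval 0.02 to 1.47, limma, unadjusted p = 0.0459, adjusted p = 0.765). Myh8 was the only heavy chain with an unadjusted p under 0.05 in mdx against wt, where 6.46% of all genes had one.

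Myh1, the IIx chain and the most abundant adult form, had 25820 and 27921 scaled counts in mdx, against 15341 and 18297 in wt. Its log2 fold change of 0.68 ± 0.35 had an interval of -0.38 to 1.74 and did not pass (limma, adjusted p = 0.832). The result for these 2 genes rests on how the spread is estimated. In a fit of the mdx and wt libraries alone, both fold changes were the same and both genes passed, Myh8 with an adjusted p of 0.000151 and Myh1 with 0.0071 (limma). Leaving out either mdx/Ripk3mKO library gave the same fold changes and calls. Such fits again take their spread from the mdx and wt libraries only, so they add no support. Neither gene passed when an mdx or wt library was left out, with fold changes of 0.66 to 0.83 for Myh8 and 0.55 to 0.81 for Myh1. The spread in the fit of all 6 libraries includes the distance between the mdx/Ripk3mKO libraries.

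The other sarcomeric genes kept the same order of groups with smaller or less certain differences. Embryonic Myh3 had 164134 and 145888 scaled counts in mdx, against 128075 and 132937 in wt (0.25 ± 0.18 on the log2 scale, adjusted p = 0.873, limma). Under quantile normalization, which fixes the values of the top-ranked genes, it was 0.08. IIb Myh4 had 518 and 597 in mdx, against 297 and 415 in wt (0.66 ± 0.42, adjusted p = 0.856, limma). Slow Myh7 had 696 and 556 in mdx, against 458 and 337 in wt (0.66 ± 0.29, adjusted p = 0.81, limma). Both genes stood far below Myh3 and Myh1, and the gap between the groups was smaller than the gap within wt. IIa Myh2 was scarce, with 60 and 63 in mdx against 41 and 56 in wt (0.35 ± 0.42, adjusted p = 0.929, limma). Counting error alone gives the lower mdx library an interval of 45.2 to 78.1, which holds the higher wt value.

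The non-muscle chains were level. Myh9 had 34538 and 33612 scaled counts in mdx, against 34892 and 32898 in wt, and a log2 fold change of 0.01 ± 0.05 with an interval of -0.10 to 0.12. Myh10 had 2696 and 2510 in mdx, against 2728 and 2454 in wt, and 0.01 ± 0.06 with an interval of -0.13 to 0.15. Differences inside these intervals cannot be told from 0.

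**Figure D2:**
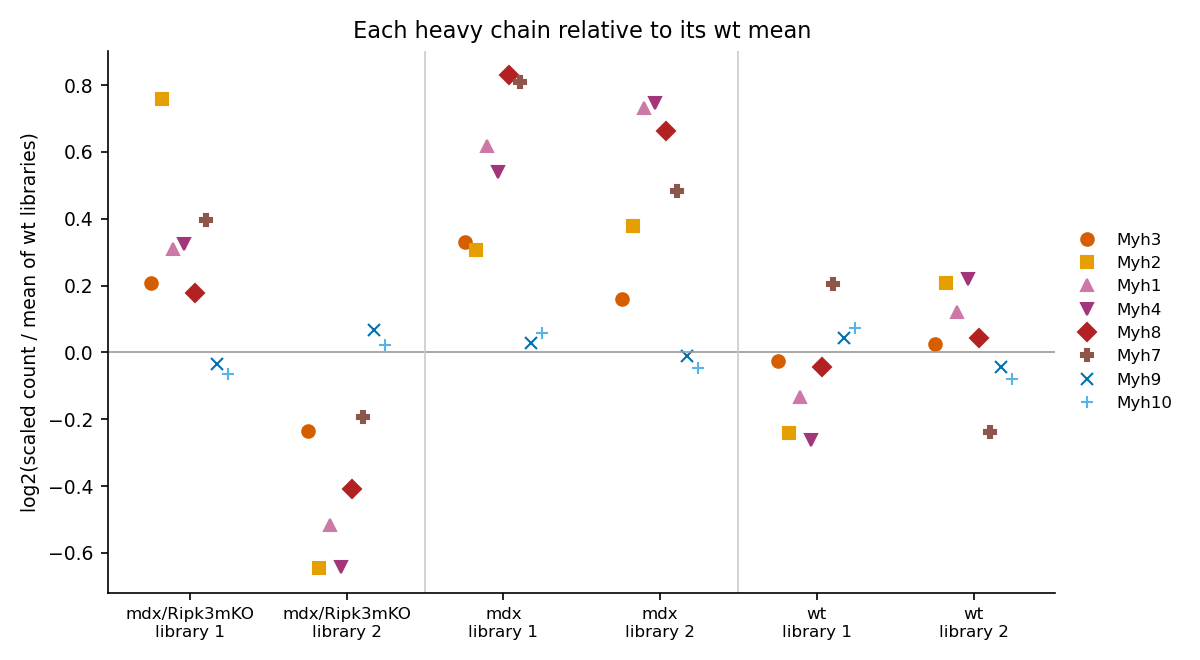
Log2 ratio of each heavy chain's scaled count to its mean in the 2 wt libraries (vertical axis) in each of the 6 libraries, with a symbol per gene. The 6 sarcomeric genes lie above the wt mean in both mdx libraries and in mdx/Ripk3mKO library 1 and below it in mdx/Ripk3mKO library 2, while Myh9 and Myh10 stay near the line.

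Between mdx/Ripk3mKO and mdx the sarcomeric heavy chains were lower in mdx/Ripk3mKO by a median of -0.66 on the log2 scale, against -0.0021 over all genes. Both mdx/Ripk3mKO libraries lay below both mdx libraries for 4 of the 8 genes (Myh1, Myh4, Myh8 and Myh7), and this was so for 20.3% of all genes tested. None of the 8 passed, where 0.206% of all genes did, or 29 genes (limma, adjusted p under 0.05). This comparison shares its mdx libraries with the comparison of mdx and wt, so high values in mdx enter both, with opposite sign.

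Myh8 had 13636 and 9077 scaled counts in mdx/Ripk3mKO, against 21405 and 19054 in mdx. Both mdx/Ripk3mKO values were lower, and they were further from each other than the mdx values were. The log2 fold change was -0.86 ± 0.24 (95% interval -1.58 to -0.14, limma, unadjusted p = 0.0313, adjusted p = 0.377). It was the only heavy chain with an unadjusted p under 0.05 in mdx/Ripk3mKO against mdx, where 11.6% of all genes had one. Without mdx/Ripk3mKO library 1, which stood apart in sex-linked transcripts, it was -1.15 and passed (limma, adjusted p = 9.14e-06). Without library 2 it was -0.57 and also passed (adjusted p = 0.00413). In such fits the remaining mdx/Ripk3mKO library is assumed to vary like the mdx and wt libraries.

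Myh1 had 20849 and 11767 scaled counts in mdx/Ripk3mKO, against 25820 and 27921 in mdx (log2 fold change -0.78 ± 0.35, limma, adjusted p = 0.531). Myh4 had 446 and 228 in mdx/Ripk3mKO, against 518 and 597 in mdx (-0.80 ± 0.42, adjusted p = 0.59, limma). In both genes library 2 of mdx/Ripk3mKO was much lower than library 1. Without library 1 they passed, Myh1 at -1.19 (limma, adjusted p = 0.000459) and Myh4 at -1.28 (adjusted p = 0.005), and without library 2 they were at -0.36 and -0.32 and did not pass. Myh7 had 523 and 348 in mdx/Ripk3mKO, against 696 and 556 in mdx (-0.54 ± 0.29, limma, adjusted p = 0.579).

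For Myh3 the groups overlapped, with 150566 and 110791 scaled counts in mdx/Ripk3mKO, against 164134 and 145888 in mdx. The log2 fold change was -0.26 ± 0.18 (limma, adjusted p = 0.681) and -0.08 under quantile normalization. Without mdx/Ripk3mKO library 1 it was -0.48 and passed (adjusted p = 0.00144), and without library 2 it was -0.04. Myh2 spread widest, with 82 and 31 in mdx/Ripk3mKO, the highest and the lowest value of all libraries, against 60 and 63 in mdx (-0.28 ± 0.42, limma, adjusted p = 0.864). Its fold change was 0.41 without library 2. Myh9 had 33082 and 35517 in mdx/Ripk3mKO, against 34538 and 33612 in mdx (0.01 ± 0.05, limma, adjusted p = 0.971), and Myh10 had 2475 and 2631, against 2696 and 2510 (-0.03 ± 0.06, adjusted p = 0.916).

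Between mdx/Ripk3mKO and wt no heavy chain was apart. The groups overlapped for 8 of 8 genes, while they did not overlap, in either direction, for 29.4% of all genes tested. For 5 of the 6 sarcomeric genes both wt libraries lay between the mdx/Ripk3mKO libraries, and for Myh7 1 wt library, at 337, lay below the lower of them, at 348. Log2 fold changes ran from -0.14 ± 0.42 for Myh4 to 0.12 ± 0.29 for Myh7, with Myh8 at -0.11 ± 0.24 (interval -0.84 to 0.61), Myh1 at -0.10 ± 0.35 (-1.16 to 0.97), Myh3 at -0.01 ± 0.18 (-0.53 to 0.50), Myh2 at 0.07 ± 0.42, Myh9 at 0.02 ± 0.05 and Myh10 at -0.02 ± 0.06. All 8 had an adjusted p of 1.0 (limma). The wide intervals do not show that the sarcomeric genes were alike in these groups. Over all genes 0.0% were called, and 3.32% had an unadjusted p under 0.05, none of them a heavy chain. Without mdx/Ripk3mKO library 2 the values of Myh1, Myh3, Myh4 and Myh8 were of the opposite sign, at 0.32, 0.21, 0.34 and 0.18, and without library 1 those of Myh2 and Myh7 were, at -0.61 and -0.17.

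**Figure D3:**
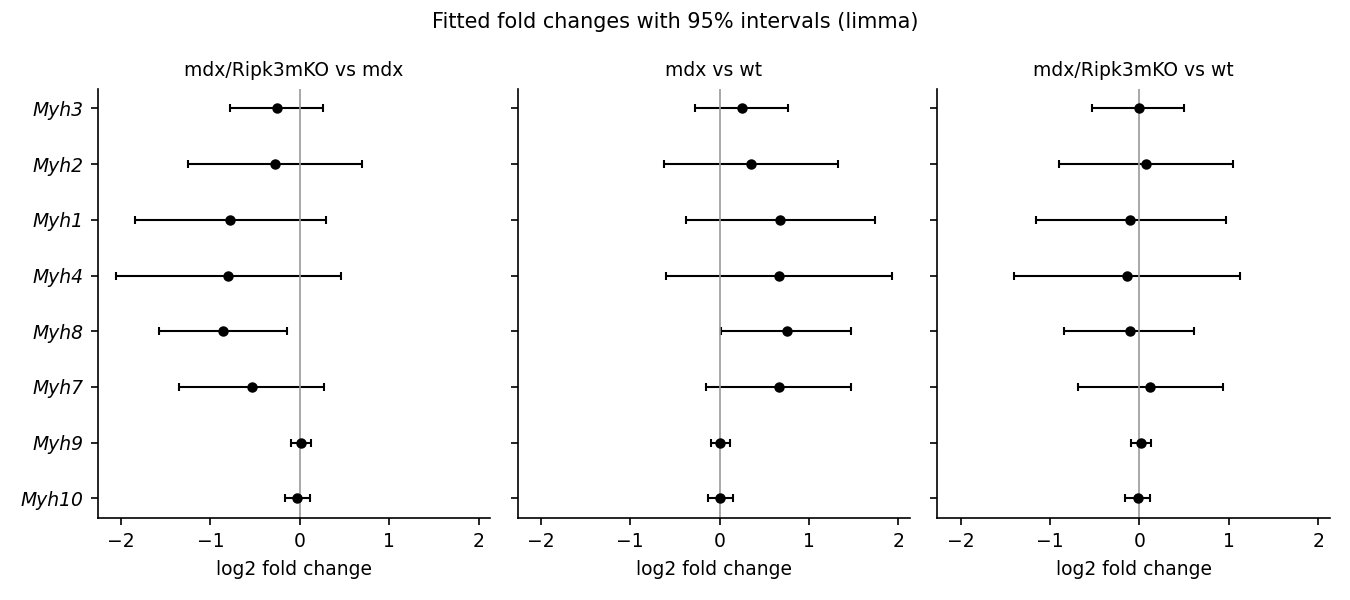
Fitted log2 fold change (horizontal axis) of the 8 heavy chains in the 3 comparisons, with the first-named group over the second and bars for the 95% interval from limma on 6 libraries. The interval leaves out 0 for Myh8 in mdx/Ripk3mKO against mdx (-1.58 to -0.14) and in mdx against wt (0.02 to 1.47), before adjustment over all genes.

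An F-test over the 3 labelled groups called none of the 8 heavy chains, with Myh8 nearest (limma, F = 7.6, unadjusted p = 0.0575, adjusted p = 0.654), where 0.0781% of all genes, or 11, were called.

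Library 2 of mdx/Ripk3mKO had the lowest value of the 6 libraries for 5 of the 6 sarcomeric genes, and library 1 was above it for 6 of 6. For comparison, library 2 had the lowest value for 16.3% of all genes tested. The ratio of the highest to the lowest library was 2.65 for Myh2, 2.62 for Myh4, 2.37 for Myh1, 2.36 for Myh8, 2.07 for Myh7 and 1.48 for Myh3, and it was 1.08 for Myh9 and 1.11 for Myh10. Summed over the sarcomeric genes, heavy chain counts made up 0.885% and 0.637% of all scaled counts in mdx/Ripk3mKO, 1.01% and 0.942% in mdx, and 0.751% and 0.795% in wt. Summed over the non-muscle genes, they made up 0.169% and 0.184%, 0.177% and 0.175%, and 0.181% and 0.171% in the same groups.

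The mixture of sarcomeric chains in mdx also stood apart from that in the other groups. Myh8 counts were 0.0906 and 0.0819 of the Myh3 counts in mdx/Ripk3mKO, 0.13 and 0.131 in mdx, and 0.0912 and 0.0934 in wt. This ratio, within a library, was highest in the mdx libraries and lay between 0.0819 and 0.0934 in the other 4. The Myh1 to Myh3 ratio was 0.138 and 0.106 in mdx/Ripk3mKO, 0.157 and 0.191 in mdx, and 0.12 and 0.138 in wt, so that mdx was again on top. Per exon length, Myh8 formed 3.80% ± 0.185 of the sarcomeric pool in mdx/Ripk3mKO, 5.42% ± 0.097 in mdx and 4.04% ± 0.0238 in wt (SD, n = 2 each). Myh1 formed 9.98% ± 1.64, 13.4% ± 1.6 and 10.4% ± 0.909 in the same groups, and Myh3 85.8% ± 1.90, 80.6% ± 1.53 and 85.1% ± 0.938. With the length of the longest transcript, a choice made after seeing the data, the share of Myh8 was 6.98% in mdx/Ripk3mKO, 9.78% in mdx and 7.39% in wt, in the same order. With 2 libraries against 2, an exact two-sided permutation test cannot give a p below 0.33, so no test of these shares was made.

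**Figure D4:**
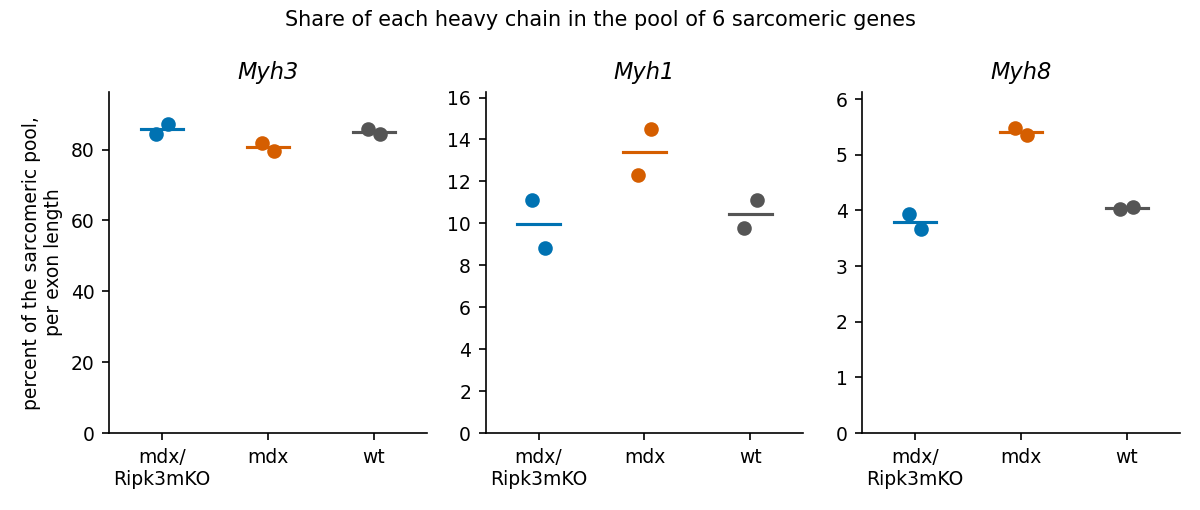
Share of Myh3, Myh1 and Myh8 in the summed level of the 6 sarcomeric heavy chains (percent, counts divided by exon length), with a dot per library and a line at the group mean. In the mdx libraries the Myh8 share was 5.48% and 5.35%, above the 3.67% to 4.06% of the other libraries, and the Myh3 share was lowest there.

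Reads of close relatives can be exchanged between these genes. Of the 50-base windows of the longest transcript, 26.9% in Myh2 and 26.7% in Myh1 occur in another heavy chain (19.7% in each other), 21.4% in Myh8, 18.9% in Myh4 and 22.2% in Myh7, for the last all in the cardiac chain Myh6. In Myh3 it was 4.81%, in Myh9 0.989% and in Myh10 0.943%. The sources used here do not say how reads with several matches were treated, so the value of Myh2, with few counts beside the far more abundant Myh1, is uncertain. Antisense genes overlap Myh2 (9430073C21Rik) and Myh1 (Myhas). Myhas had 71 and 32 scaled counts in mdx/Ripk3mKO, 85 and 89 in mdx, and 54 and 59 in wt, the same order of libraries as Myh1. Its log2 fold change was -0.85 ± 0.31 in mdx/Ripk3mKO against mdx (limma, adjusted p = 0.331) and 0.61 ± 0.31 in mdx against wt (adjusted p = 0.805). The strand setting of the counting is not given either, so reads of Myhas and Myh1 cannot be told apart.

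The genes closest to a heavy chain in their profile were found by the root mean square difference of log2 values over the 6 libraries, each gene centred on its own mean, among 10544 genes. For Myh3 they were Cacng6, a calcium channel subunit (difference 0.022), Srl, the calcium-binding sarcalumenin of the sarcoplasmic reticulum (0.033), and Cavin4, a coat protein of muscle caveolae (0.036). Cacng6 had 1014 and 740 scaled counts in mdx/Ripk3mKO, 1064 and 953 in mdx, and 829 and 867 in wt. For Myh8 Tceal5 (0.088) and the Wnt receptor Fzd10 (0.092) were nearest. Tceal5 had 128 and 72 in mdx/Ripk3mKO, 166 and 159 in mdx, and 96 and 106 in wt. For Myh9, whose log2 values spanned 0.11 in all, they were Setd5 (0.008), Nadk2 (0.013) and Wars2 (0.013), and many genes are as flat.

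Genes whose proteins work with sarcomeric heavy chains had values in the same direction. Of the sarcomeric light chains, which stiffen the lever arm of the motor, 5 of 6 were tested, all 5 lower in mdx/Ripk3mKO than in mdx (median -0.35) and all 5 higher in mdx than in wt (median 0.30), and none passed. The alkali light chain Myl1 was at -0.38 ± 0.26 and 0.44 ± 0.26 in these comparisons, the embryonic and atrial light chain Myl4 at -0.35 ± 0.17 and 0.40 ± 0.17, and the fast regulatory light chain Mylpf at -0.21 ± 0.17 and 0.28 ± 0.17. The remaining light chains of the 5, Myl2 and Myl3, were near the floor, with at most 13 and 21 scaled counts, and their signs are uncertain. Of 10 thick filament partners 8 were tested, all 8 lower in mdx/Ripk3mKO than in mdx (median -0.39) and all 8 higher in mdx than in wt (median 0.31). Titin (Ttn), the spring that spans the sarcomere, was at -0.34 ± 0.14 in mdx/Ripk3mKO against mdx, and the myosin-binding protein Mybpc1 at -0.55 ± 0.20, and neither passed. Mybpc2 was near the floor, with 2 and 3 in mdx/Ripk3mKO, against 11 and 15 in mdx.

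Genes of myosin folding and turnover did not all go 1 way. Of 9 tested genes, 4 were higher and 5 lower in mdx/Ripk3mKO against mdx (median -0.02). In mdx against wt 6 were higher and 3 lower (median 0.05). The myosin chaperone Unc45b was at -0.26 ± 0.13 and 0.22 ± 0.13, and the ubiquitin ligase Trim63 (MuRF1), which acts on thick filament proteins, at -0.40 ± 0.12 and 0.31 ± 0.12, and neither passed. Non-muscle light chains had medians of -0.01 and 0.08 over 5 genes. Genes that control non-muscle myosin (kinases, phosphatase subunits, Rhoa and S100a4) had -0.07 and 0.02 over 9. Myosin light chain kinase (Mylk) was the exception in size, at -0.53 ± 0.13 in mdx/Ripk3mKO against mdx (limma, adjusted p = 0.143) and 0.43 ± 0.13 in mdx against wt (adjusted p = 0.586). Of 24 regulators of isoform choice 22 were tested, with medians of 0.03 and -0.02. The myogenic factor Myod1 went the other way from the heavy chains, at 0.28 ± 0.05 (limma, adjusted p = 0.0528) and -0.22 ± 0.05 (adjusted p = 0.418), as did the cofactor Vgll2, at 0.29 ± 0.07 and -0.16 ± 0.07, while the coactivator Ppargc1a, at -0.56 ± 0.20 and 0.43 ± 0.20, had the same signs as they did. None of these passed.

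**Figure D5:**
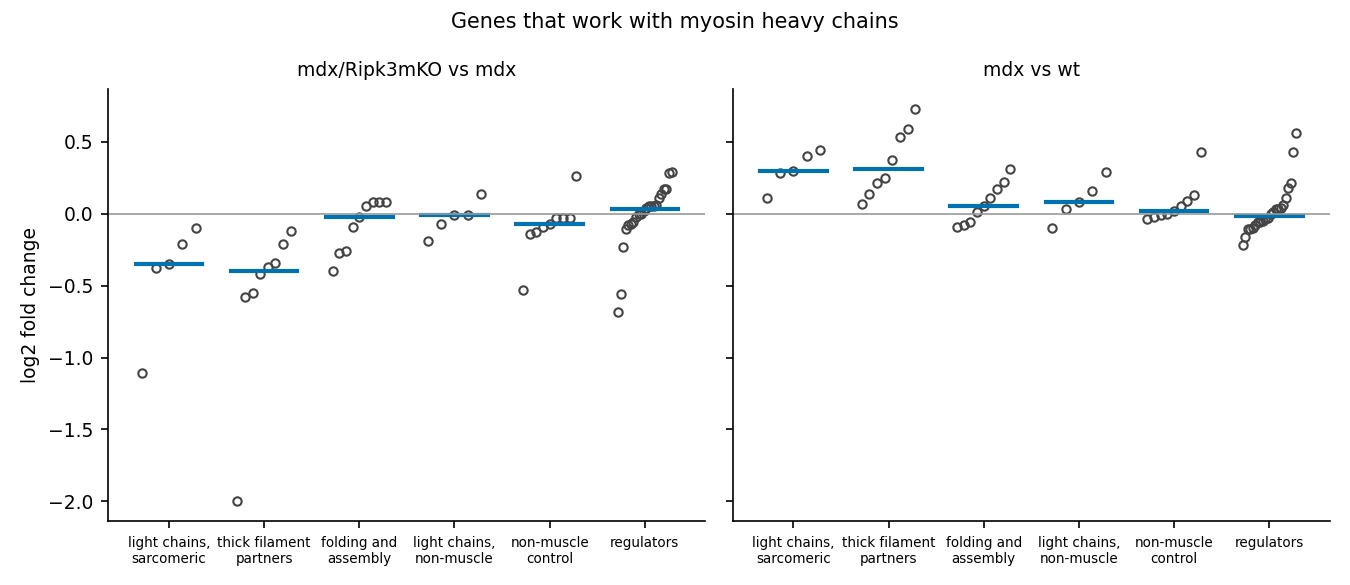
Log2 fold changes (vertical axis) of the tested genes of 6 lists of myosin partners, with mdx/Ripk3mKO over mdx on the left and mdx over wt on the right, an open circle per gene and a blue line at the median. Sarcomeric light chains and thick filament partners have medians of -0.35 and -0.39 on the left and 0.30 and 0.31 on the right.

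Of the other heavy chain genes, Myh7b, a slow-type muscle chain, had 179 and 109 scaled counts in mdx/Ripk3mKO, 206 and 195 in mdx, and 141 and 160 in wt, the same order of groups as Myh8. It was at -0.52 ± 0.20 in mdx/Ripk3mKO against mdx (limma, adjusted p = 0.353) and 0.41 ± 0.20 in mdx against wt (adjusted p = 0.788). Extraocular Myh13, at most 20 scaled counts, and non-muscle Myh14, at most 52, were scarce in all libraries.

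Marker lists of other cells stand beside the sarcomeric heavy chains as follows. Summed levels of differentiating muscle markers were 159700 and 130391 in mdx/Ripk3mKO, 160122 and 136071 in mdx, and 146464 and 130200 in wt, so that the groups overlapped in this sum, which is mostly Acta1 and Myog. In mdx against wt 5 of the 6 markers were higher, with a median of 0.08, and none passed. Myog was at -0.10 ± 0.15, Mymk at 0.02 ± 0.12, Mymx at 0.01 ± 0.16 and Acta1 at 0.14 ± 0.18. Creatine kinase (Ckm) had 2357 and 1420 scaled counts in mdx/Ripk3mKO, 2631 and 2452 in mdx, and 1742 and 1754 in wt, and lay wholly higher in mdx than in wt, as the sarcomeric heavy chains did (0.54 ± 0.29, limma, adjusted p = 0.836). Fast troponin T (Tnnt3) had 22361 and 18150 in mdx/Ripk3mKO, 24790 and 22087 in mdx, and 19572 and 19896 in wt, and was likewise wholly higher in mdx than in wt (0.25 ± 0.10, limma, adjusted p = 0.78). Those of smooth muscle and pericytes (5 of 7 in the table, mostly Acta2) were 49615 and 45643, 53439 and 37506, and 50363 and 40158. Within that list Pdgfrb, a receptor of pericytes and other mesenchymal cells, was at -0.57 ± 0.12 in mdx/Ripk3mKO against mdx (limma, adjusted p = 0.0837) and 0.41 ± 0.12 in mdx against wt (adjusted p = 0.556). In this list 2 genes were higher and 3 lower in the first comparison (median -0.38), and 3 higher and 2 lower in the second (median 0.41). Abcc9 was at -0.43 ± 0.23 and 0.43 ± 0.23, and the scarce Rgs5 at -0.38 ± 0.35 and 0.75 ± 0.35. Acta2 was near 0, at 0.10 ± 0.25 and -0.02 ± 0.25, as was the scarce Tagln, at 0.07 ± 0.27 and -0.0 ± 0.27. None of the 5 passed. Endothelial (4 of 5), fibro-adipogenic (1 of 5), macrophage (1 of 5) and Schwann cell markers (1 of 4) summed to 37 to 56, 24 to 32, 15 to 31 and 28 to 42 scaled counts. Listed markers not counted here were not in the table used here. Of the mature fibre markers, which include Myh4, 4 of 5 were in the table, and they summed to 24229 and 20040 in mdx/Ripk3mKO, 25582 and 23955 in mdx, and 21568 and 20866 in wt. The part of any of these cells in the heavy chain values was not tested.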

How the data were processed

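The authors deposited whole-number values per gene for 6 libraries, which are read here as a score: counts scaled between libraries and rounded, since their median-ratio size factors lay between 1.0019 and 1.0023. Each library was made from 10000 to 20000 sorted cells with a Takara SMARTer stranded kit for low input, per the labels. Tools named in the submitters' processing notes were DESeq2 1.18.1, featureCounts 1.6.3, STAR 2.6.1d and Trimmomatic 0.36, with the build mm10. Both mdx columns carry the same header, so their numbers are names only. Count models need raw counts, so values were taken to log2(scaled count + 1) and fitted with limma 3.58.1 (R 4.3.3), all 6 libraries together, with genotype as the only term, trended and robust empirical Bayes (statmod 1.5.0) and 3 residual degrees of freedom. Tested genes had at least 10 in at least 2 libraries (14077 tested, 438 not), with Benjamini-Hochberg adjustment and a threshold of 0.05. Fold changes understate those of low genes, and an error not marked as SD is the moderated standard error. The intervals of Myh2 and Myh6 are exact Poisson intervals on counts before scaling and cover counting error only. Exon lengths come from GENCODE vM21 (GRCm38). Members, lists and tests were chosen with earlier results of these data known. All members are named. Up to 4 genes per list with the smallest p, plus any past the threshold, were eligible to be named, as were the 3 genes nearest to Myh3, Myh8 and Myh9 with a mean of at least 50. Of the genes so selected, 2 are not reported here. The fit was tested on simulated data of mdx against wt, where the share of calls that fell on unchanged genes was above the threshold. No 2 libraries of a group agreed within sampling noise. Alternatives were pseudocounts of 0.5 and 5, no filter or a filter at 50, quantile and TMM scaling, no trend, a GC and length correction, the 2 groups alone, and each library left out.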

Additional observations from a re-analysis of the deposited data

How the results depend on the processing

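The small number of libraries limits all values, and the depth limits Myh2. Genes called in mdx against wt numbered 1, and 103 in a fit of these groups alone (0 to 103 with each library left out). In mdx/Ripk3mKO against mdx they numbered 29, but 18 with the filter at 50, 11 after GC and length correction, 2 in the groups alone and 1 without trend (1 to 278 with a library left out). In mdx/Ripk3mKO against wt they numbered 0, with 467 at unadjusted p under 0.05 (limma, 0 to 20 with a library left out). The F-test called 11, against 1 with the filter at 50, 7 after GC and length correction and 1 without trend (1 to 203). The cause was not tested, apart from fewer genes or libraries by construction. Apart from leaving out libraries, 221 of 224 member values kept direction and side of the threshold. Myh8 and Myh1 passed in mdx against wt alone, and Myh9 turned to -0.0182 under quantile normalization. No scaling moved the median of all genes by over 0.1.

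With each library left out, signs turned for values near 0 or with wide spread. In mdx against wt Myh9 ranged from -0.0343 to 0.0506 and Myh10 from -0.0686 to 0.0841. In mdx/Ripk3mKO against mdx Myh2 ranged from -0.97 to 0.41, Myh9 from -0.0425 to 0.0599 and Myh10 from -0.0793 to 0.0238. In mdx/Ripk3mKO against wt the ranges were -0.51 to 0.32 for Myh1, -0.61 to 0.76 for Myh2, -0.24 to 0.21 for Myh3, -0.62 to 0.34 for Myh4, -0.17 to 0.41 for Myh7, -0.41 to 0.18 for Myh8, -0.0344 to 0.0681 for Myh9 and -0.10 to 0.0564 for Myh10.

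The Myh3 share of the pool was 82.3% in mdx/Ripk3mKO, 76.2% in mdx and 81.5% in wt with no division by length, and 82.5%, 76.4% and 81.7% with the longest transcript.

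The replicate block was fitted for mdx/Ripk3mKO against wt only, since the mdx columns carry no numbers of their own. It called 0 genes, and the differences between libraries 1 and 2 had a correlation of -0.01 over 14077 genes. A correlation over all genes cannot tell if libraries with the same number share more than that number.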

Other observations

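Myh6, the alpha cardiac heavy chain, which lies beside Myh7 and shares 22.2% of the 50-base windows of Myh7, had 35 scaled counts in mdx/Ripk3mKO library 1 (exact 95% counting interval 25.2 to 47.3) and 2 in library 2 (0.317 to 6.53), against 5 and 7 in mdx and 3 and 9 in wt. It did not pass the filter on low values and was not tested. Myh7 had 523 and 348 in the same mdx/Ripk3mKO libraries. The other 4 of 5 cardiac markers looked for were not listed in the table used here.

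Mef2c and Casq1 were picked after their values were seen. Mef2c, a MEF2 factor, had 6410 and 3660 scaled counts in mdx/Ripk3mKO, 7679 and 7865 in mdx, and 4863 and 5700 in wt, the same order of libraries as Myh1 and Myh4. Its log2 fold changes were -0.68 ± 0.33 in mdx/Ripk3mKO against mdx (limma, adjusted p = 0.565) and 0.56 ± 0.33 in mdx against wt (adjusted p = 0.847). The other MEF2 genes listed were near 0 in these comparisons, Mef2a at -0.08 ± 0.05 and 0.01 ± 0.05, and Mef2d at 0.05 ± 0.06 and -0.05 ± 0.06. A link between Mef2c and the MEF2 motif matches was not tested. Casq1, the fast-fibre calcium buffer calsequestrin, had 724 and 349 in mdx/Ripk3mKO, 932 and 1271 in mdx, and 448 and 558 in wt, with fold changes of -1.11 ± 0.47 and 1.12 ± 0.47 (adjusted p = 0.514 and 0.81).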
